A study of Caenorhabditis elegans with 9 samples.

Results

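The FLP and NLP genes of *Caenorhabditis elegans* were followed in young larvae in which either of 2 chromatin regulators was targeted by RNA interference. Members were the probe sets that the array annotation assigns to 1 gene only, with a symbol beginning flp- or nlp-. There were 94 of them among the 22548 probe sets of the array, for 83 of the 17118 genes named alone, and they split into 32 probe sets for 25 FLP genes and 62 for 58 NLP genes. All 94 matched an entry of the RefSeq gene table, which holds 31 flp and 78 nlp genes. A further 2 probe sets name *nlp-4* or *nlp-76* together with a second gene and were kept out of the counts.

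FLP genes encode FMRFamide-like peptides, and NLP genes form a mixed group of other neuropeptide-like proteins. Both are made as precursors that are cut in dense core vesicles, trimmed and often amidated, and the released peptides act mainly on G protein-coupled receptors of other cells. Several NLP genes are also transcribed outside the nervous system, in the gut or in the epidermis, where some encode antimicrobial peptides induced by fungal infection and wounding.

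Total RNA came from whole L1 larvae of the wild-type N2 Bristol strain, hybridised to an Affymetrix *C. elegans* Genome Array, with 3 biological replicates in each of 3 groups. In every group, parents from the L4 stage onwards and then the larvae ate HT115 bacteria producing double-stranded RNA at 25 °C, and hatchlings had 3 h of this food after starvation. The groups differ in the target, which was *gfp* in the reference, *let-418* (an Mi-2 chromatin remodelling ATPase) or *mep-1* (a zinc finger protein that binds it). Each group has 1 array under each of the batch numbers 1 to 3, and the batch number equals the replicate number. The sample titles give the replicate number only, so arrays are grouped into batches below by that number. In RNA of whole larvae, fewer cells of a type and less RNA per cell cannot be told apart.

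Values are MAS5 signals (the summary of a probe set's brightness, without a unit), scaled so that all 9 arrays share 1 trimmed mean, with factors from 0.743 to 1.55. The *let-418* signal was higher, not lower, on the arrays labelled *let-418(RNAi)*, at 1595, 1479 and 2276 against 815, 1012 and 917 in the reference. Its log2 fold change was 0.94 (adjusted p = 0.0043 by the limma test described below). The *mep-1* signal differed by 0.07 (log2) on arrays labelled *mep-1(RNAi)*. The sources used here do not say where these probe sets lie relative to the RNAi inserts, so all directions below are for arrays as labelled. Germline markers such as *prg-1* were higher in both labelled knockdown groups, 10 of 13 being called in each. The limma test was fitted to all probe sets, and "called" means an adjusted p (Benjamini-Hochberg over all 22548) under 0.05 together with a change of 2-fold or more.

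Neuropeptide genes were seldom among the genes that differed from the reference. On arrays labelled *let-418(RNAi)*, 3 of the 94 members were called (3.19%), against 9.3% of all probe sets: *flp-10*, *nlp-23* and *nlp-67*, all higher (of all probe sets, 6.54% were called higher and 2.75% lower). On arrays labelled *mep-1(RNAi)*, 3 members were also called, against 10.1% of all: *nlp-23* higher, *nlp-29* and *nlp-89* lower (6.78% and 3.3% of all). By family, 1 of 32 FLP and 2 of 62 NLP probe sets were called in the first comparison and 0 of 32 and 3 of 62 in the second. In all, 5 members were called in at least 1 comparison, 1 in both and 89 in neither; the comparisons share the reference arrays.

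**Figure D1:**
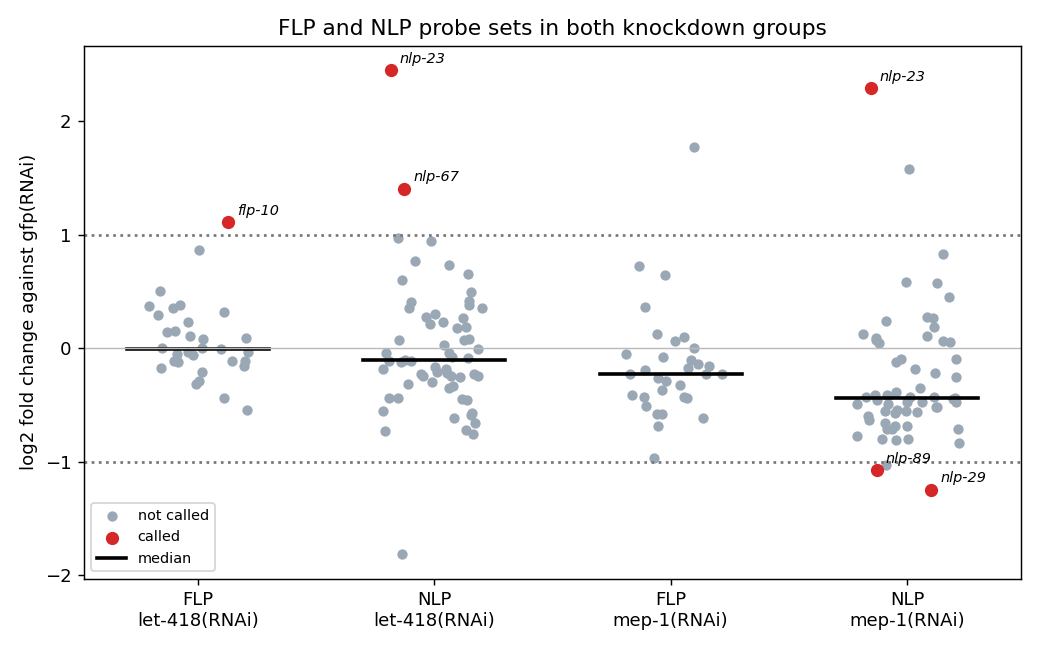
Log2 fold change against *gfp(RNAi)* (vertical axis) of each FLP and NLP probe set (points, spread sideways for legibility) in the 2 labelled knockdown groups. Black bars are medians, dotted lines mark a fold change of 2, and red points with names are called; most points lie between the dotted lines, and the *mep-1(RNAi)* medians are -0.22 (FLP) and -0.44 (NLP).

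The single called FLP gene was *flp-10* (T06C10.4, chromosome IV), whose peptide acts on the receptor EGL-6 to inhibit egg laying. Its signal was 150, 116 and 127 on the reference arrays, 344, 231 and 281 on *let-418(RNAi)* arrays and 230, 163 and 266 on *mep-1(RNAi)* arrays. All 6 knockdown arrays were above all 3 reference arrays. The log2 fold change was 1.11 ± 0.22 (SE) in the first comparison (limma adjusted p = 0.0051) and 0.73 ± 0.22 in the second (adjusted p = 0.044), which is short of the fold limit. Without *let-418(RNAi)* replicate 1 the first fell just under the limit, at 0.97. It also did so after quantile normalization (0.97) and when 21.1 was added to every signal before log2 (0.998), and the call was lost on unscaled signals (adjusted p = 0.16).

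The other EGL-6 ligand gene, *flp-17* (C52D10.11, chromosome IV), went the other way and is named after its values were seen. Its signal was 658, 620 and 637 in the reference, 610, 501 and 439 on *let-418(RNAi)* arrays and 403, 309 and 499 on *mep-1(RNAi)* arrays, so that neither knockdown group overlapped the reference. The log2 fold change was -0.32 ± 0.18 (adjusted p = 0.30) and -0.69 ± 0.18 (adjusted p = 0.025), below the fold limit in both.

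*nlp-23* (T24D8.4, chromosome X) was called in both comparisons, but from very dim signals. The reference arrays read 4.0, 2.3 and 9.3, the *let-418(RNAi)* arrays 28.5, 27.2 and 17.8 and the *mep-1(RNAi)* arrays 19.3, 28.4 and 18.1. Neither knockdown group overlapped the reference, yet every reference value was under 19.02, the upper limit of the dimmest 25% of probe sets. The log2 fold change was 2.45 ± 0.54 (limma adjusted p = 0.0097) and 2.29 ± 0.54 (adjusted p = 0.013). With the same 21.1 added these became 0.80 and 0.71, under the fold limit, and without *mep-1(RNAi)* replicate 2 the second lost its call (adjusted p = 0.056), as it did on unscaled signals (adjusted p = 0.064).

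The gene beside it on the chromosome was too dim to be compared. *nlp-22* (T24D8.3), whose peptide promotes the quiet state of moulting larvae, read 9.0, 8.9 and 3.2 in the reference, 1.4, 4.4 and 1.0 on *let-418(RNAi)* arrays and 6.1, 2.7 and 6.5 on *mep-1(RNAi)* arrays, all 9 values being under that limit of 19.02. Neither comparison passed the test (adjusted p = 0.15 and 0.77), and with 21.1 added its log2 fold changes were -0.26 and -0.10. *nlp-2*, the neighbour on the other side, stood at 0.26 (adjusted p = 0.74) and 0.07 (adjusted p = 0.94). These 3 genes lie in a row in the RefSeq table, and *nlp-22* and *nlp-2*, named for that reason after the values were seen, did not pass the test.

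*nlp-67* (R11.2, chromosome X) differed from the reference on *let-418(RNAi)* arrays. Its signal was 52.3, 27.6 and 27.1 in the reference, 88.7, 75.9 and 108.3 on *let-418(RNAi)* arrays and 57.2, 45.8 and 50.2 on *mep-1(RNAi)* arrays. The *let-418(RNAi)* values were above all others, while the *mep-1(RNAi)* values overlapped the reference. The log2 fold change was 1.41 ± 0.31 (limma adjusted p = 0.0094) and 0.58 ± 0.31 (adjusted p = 0.24). This call held with each of the 9 arrays left out in turn, the log2 fold change running from 1.24 to 1.72. It was lost on unscaled signals (adjusted p = 0.085) and under the methods' t-test, both at p of at most 0.01 without adjustment and after adjustment (0.10).

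*nlp-29* (B0213.4, chromosome V), an antimicrobial peptide gene of the epidermis used as a reporter of fungal infection and wounding, was lower on *mep-1(RNAi)* arrays. Its signal was 1034, 576 and 493 in the reference, 622, 385 and 392 on *let-418(RNAi)* arrays and 316, 173 and 404 on *mep-1(RNAi)* arrays. All *mep-1(RNAi)* arrays were below all reference arrays, whereas the *let-418(RNAi)* values overlapped them. The log2 fold change was -1.24 ± 0.34 against the reference (limma adjusted p = 0.027), and -0.55 ± 0.34 for *let-418(RNAi)* (adjusted p = 0.34). The first call was lost without *gfp(RNAi)* replicate 1, *gfp(RNAi)* replicate 2 or *mep-1(RNAi)* replicate 2, with adjusted p up to 0.10, and in a fit without the intensity trend (adjusted p = 0.084).

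*nlp-89* (C35B1.7, chromosome IV) sat at the edge of the threshold. It read 246, 126 and 93.8 in the reference, 164, 94.4 and 117 on *let-418(RNAi)* arrays and 74.6, 62.1 and 67.6 on *mep-1(RNAi)* arrays, the last group being below both others on every array. The log2 fold change was -1.07 ± 0.33 for *mep-1(RNAi)* (limma adjusted p = 0.047) and -0.23 ± 0.33 for *let-418(RNAi)* (adjusted p = 0.72). Only in 1 of the 9 fits with an array left out, that without *gfp(RNAi)* replicate 3, did the call remain, and the adjusted p ran from 0.015 to 0.14. It was lost as well on unscaled signals (0.066), with 21.1 added (0.056) and without the intensity trend (0.094).

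**Figure D2:**
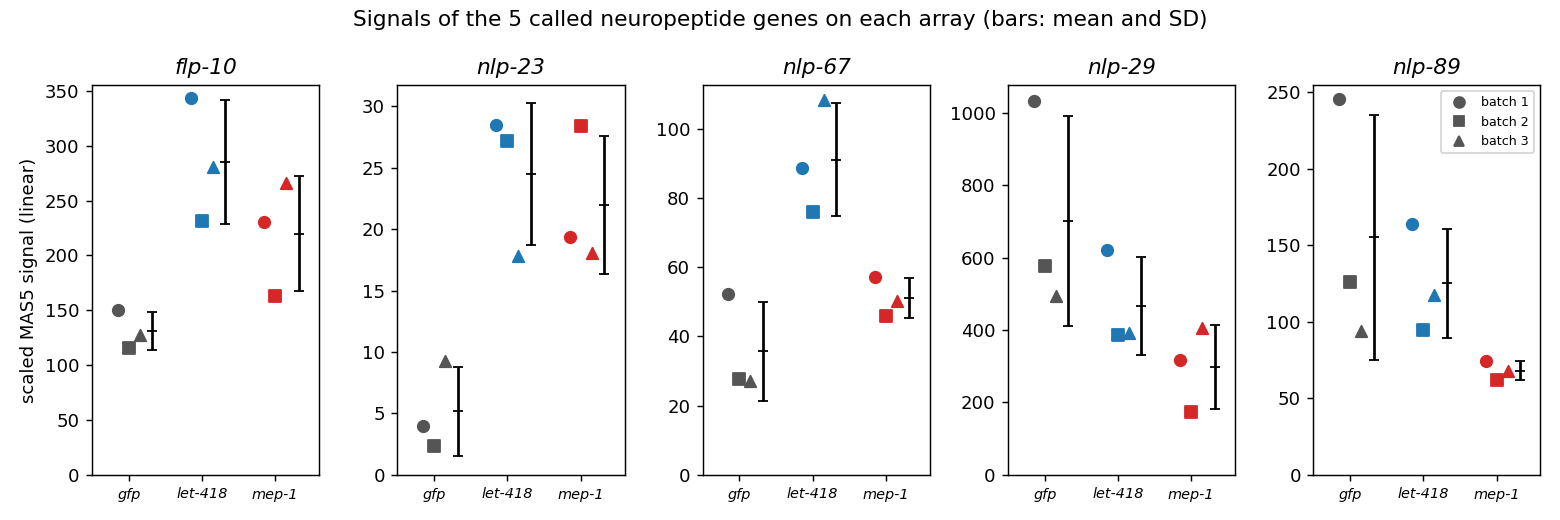
Scaled MAS5 signal on each array (linear axis from 0, its own range in each panel) of the 5 called genes. Shapes give the batch and the black bar beside each group its mean and SD (n = 3); *flp-10* and *nlp-23* are above the reference in both knockdown groups, *nlp-67* is highest on *let-418(RNAi)* arrays, and *nlp-29* and *nlp-89* are lowest on *mep-1(RNAi)* arrays.

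Without the fold limit, 6 members passed the adjusted p on *let-418(RNAi)* arrays, against 15.4% of all probe sets, and 8 on *mep-1(RNAi)* arrays, against 16.9%. All 6 in the first comparison were higher, where 9.67% of all probe sets were higher and 5.75% lower. In the second, 3 were higher and 5 lower, beside 10.4% and 6.49% of all. Beyond those described, and named after their values were seen, they were *nlp-9*, *nlp-27* and *nlp-80* in the first and *flp-8*, *nlp-27* and *nlp-49* in the second. Those under the fold limit passed the adjusted p in 2 to 6 of the 9 fits with an array left out. With the batch as a block, 5 members passed it in the first comparison and 12 in the second, the additions being *nlp-9*, *nlp-47* and both probe sets of *nlp-16*.

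*nlp-49* (H05L03.3, chromosome X), whose peptide raises arousal through the receptor SEB-3, read 912, 663 and 576 in the reference, 394, 404 and 554 on *let-418(RNAi)* arrays and 332, 488 and 401 on *mep-1(RNAi)* arrays. Both knockdown groups were below the whole reference group, with log2 fold changes that came to -0.66 ± 0.21 (adjusted p = 0.058) and -0.81 ± 0.21 (adjusted p = 0.022).

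*flp-8* (F31F6.4, chromosome X) has 2 probe sets. The dimmer one read 315, 249 and 274 in the reference, 353, 177 and 225 on *let-418(RNAi)* arrays and 122, 124 and 190 on *mep-1(RNAi)* arrays, with no overlap between the last group and the reference and a log2 fold change of -0.97 ± 0.26 (adjusted p = 0.025). The brighter one gave -0.62 ± 0.23 (adjusted p = 0.090). Without *gfp(RNAi)* replicate 2 or *mep-1(RNAi)* replicate 3 the dimmer one was called, which made 1 called FLP probe set in place of 0.

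*nlp-9* (E03D2.2, chromosome V) and *nlp-80* (T04C12.3, chromosome V) were higher on *let-418(RNAi)* arrays. One *nlp-9* probe set read 595, 430 and 511 in the reference, 865, 706 and 988 on *let-418(RNAi)* arrays and 643, 732 and 912 on *mep-1(RNAi)* arrays. Both knockdown groups lay above the reference, and the log2 fold changes were 0.74 ± 0.18 (adjusted p = 0.018) and 0.57 ± 0.18 (adjusted p = 0.054, or 0.039 with the batch as a block). Its second probe set stood at 0.49 ± 0.20 (adjusted p = 0.13) in the first comparison. *nlp-80* read 631, 622 and 537 in the reference, 1177, 687 and 1024 on *let-418(RNAi)* arrays and 607, 708 and 853 on *mep-1(RNAi)* arrays, the first of these groups lying above the reference, at 0.66 ± 0.20 (adjusted p = 0.048, or 0.061 with the batch as a block).

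The brightest probe sets of each family, picked by their reference signal without regard to change, did not pass the test in either comparison, except *nlp-47* once the batch was a block. *flp-1*, which encodes peptides that shape locomotion, read 1475, 1297 and 1068 in the reference, 1197, 1007 and 927 on *let-418(RNAi)* arrays and 853, 765 and 1085 on *mep-1(RNAi)* arrays, at log2 fold changes that came to -0.29 ± 0.17 (adjusted p = 0.32) and -0.51 ± 0.17 (adjusted p = 0.070). *flp-18*, whose peptides act on NPR-1 and related receptors, read 1262, 1149 and 1181, then 1161, 1068 and 1293, then 898, 874 and 1022 in the same order of groups, at -0.03 ± 0.13 (adjusted p = 0.91) and -0.36 ± 0.13 (adjusted p = 0.078). For both genes the *mep-1(RNAi)* group had the lowest mean, and for *flp-18* it did not overlap the others.

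*flp-9* read 1613, 1320 and 1268 in the reference, 1992, 1752 and 1722 on *let-418(RNAi)* arrays and 1455, 1108 and 1905 on *mep-1(RNAi)* arrays. It stood at 0.39 ± 0.19 (log2; adjusted p = 0.22) and 0.06 ± 0.19 (adjusted p = 0.87), the second turning negative on unscaled signals. All *let-418(RNAi)* values of *flp-9* were above the reference, while the *mep-1(RNAi)* values spanned it.

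Among NLP genes, *nlp-40*, an intestinal peptide gene that times the defecation rhythm, read 1485, 1129 and 1093 in the reference, 1512, 1283 and 1984 on *let-418(RNAi)* arrays and 1270, 1546 and 1650 on *mep-1(RNAi)* arrays, at 0.36 ± 0.19 (adjusted p = 0.25) and 0.27 ± 0.19 (adjusted p = 0.38). *nlp-47*, which encodes a peptide of the gonadotropin-releasing and adipokinetic hormone family, read 860, 819 and 776, then 682, 459 and 938, then 452, 446 and 626, at -0.30 ± 0.23 (adjusted p = 0.46) and -0.71 ± 0.23 (adjusted p = 0.060, or 0.038 with the batch as a block, under the fold limit). *nlp-18* read 984, 697 and 481, then 902, 617 and 698, then 460, 408 and 599, at 0.08 ± 0.25 (adjusted p = 0.88) and -0.52 ± 0.25 (adjusted p = 0.19). Of these, *nlp-47* was the one in which the *mep-1(RNAi)* group lay wholly below the reference; *nlp-40* and *nlp-18* overlapped it.

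*nlp-5* (F35C11.1, chromosome II) is the member for which the study designed quantitative PCR primers, shown here (5′ to 3′) because they define the one independent assay of a member, whose readout was not used here.
nlp-5 left primer: gcatcttttgtggtttcctc
nlp-5 right primer: cctccaagagtgtcaaaacc
On the arrays *nlp-5* read 97.5, 80.4 and 62.2 in the reference, 91.6, 68.9 and 76.8 on *let-418(RNAi)* arrays and 65.1, 40.1 and 78.6 on *mep-1(RNAi)* arrays. The 3 groups overlapped, and neither comparison passed the test (log2 fold changes that came to 0.00 ± 0.30, adjusted p = 1.00, and -0.42 ± 0.30, adjusted p = 0.40).

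In each family most fold changes were under 1.5-fold, as among all probe sets. The NLP median absolute log2 fold change on *mep-1(RNAi)* arrays was 0.47, against 0.41 of all probe sets. Within 1.5-fold of the reference lay 30 of 32 FLP probe sets on *let-418(RNAi)* arrays and 26 on *mep-1(RNAi)* arrays, and 48 and 43 of 62 NLP probe sets, beside 64.7% and 63.6% of all probe sets. The middle of the distribution was near 0 on *let-418(RNAi)* arrays, with a median log2 fold change of 0.00 for FLP and -0.11 for NLP (all probe sets -0.03). On *mep-1(RNAi)* arrays it was -0.22 for FLP and -0.44 for NLP (all probe sets 0.02), with 24 of 32 and 45 of 62 below 0. These *mep-1(RNAi)* medians were below 0 under all 3 scalings, at -0.26 and -0.54 after quantile normalization and -0.51 and -0.72 unscaled, where the median of all probe sets itself moved to -0.27.

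Groups that did not overlap were counted too. On *let-418(RNAi)* arrays 12 members lay wholly above and 3 wholly below the reference, against 17.9% and 15.9% of all probe sets. On *mep-1(RNAi)* arrays 6 lay wholly above and 18 wholly below, against 18.6% and 15.1%. The shares of members were 12.8% and 3.19% in the first comparison and 6.38% and 19.1% in the second, the last being near its background.

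The sign of the family medians differed between batches, each batch value being 1 array against 1 array. A batch and its single arrays therefore cannot be told apart here. For *mep-1(RNAi)* against the reference, the FLP median was -0.67 in batch 1, -0.36 in batch 2 and 0.38 in batch 3, with 29, 24 and 5 of 32 probe sets below 0. The NLP median was -0.74, -0.50 and 0.13, with 53, 47 and 21 of 62 below 0. In both families the lower signals were thus found in batches 1 and 2 and not in batch 3. For *let-418(RNAi)* the FLP medians were -0.11, -0.18 and 0.44 and the NLP medians -0.15, -0.32 and 0.27, again with the opposite sign in batch 3.

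The members moved together from array to array within a group. Within the reference group, *gfp(RNAi)* replicate 1 had the highest signal for 76 of 94 members and replicate 3 the lowest for 67. Of all 22548 probe sets, replicate 1 was highest for 31.7% and replicate 3 lowest for 8285. Within the *mep-1(RNAi)* group replicate 3 was highest for 70 of 94 (32.4% of all probe sets). Within the *let-418(RNAi)* group replicate 2 was lowest for 67 (6070 of all 22548 probe sets). Against the reference mean, the FLP median deviation was 0.31, -0.05 and -0.26 on the 3 reference arrays and the NLP median 0.31, -0.05 and -0.32, a spread as wide as the differences between groups. Without *gfp(RNAi)* replicate 1 the *mep-1(RNAi)* medians were -0.08 (FLP) and -0.27 (NLP), and the *let-418(RNAi)* medians were 0.18 and 0.14. Without *let-418(RNAi)* replicate 2 the latter were 0.14 and 0.04. Without *mep-1(RNAi)* replicate 2 the FLP median was -0.16 and the NLP median -0.30, and without *mep-1(RNAi)* replicate 1 the FLP median was -0.13. Without *gfp(RNAi)* replicate 3 or *mep-1(RNAi)* replicate 3 the *mep-1(RNAi)* FLP median was -0.37 or -0.39.

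Markers of other tissues and of neurons were read on the same arrays. All 25 of 25 listed neuron markers (synaptic and transmitter genes such as *rab-3*, *unc-13* and *eat-4*) were measured, none in the dimmest 25%, and their order in the reference was the reverse: *gfp(RNAi)* replicate 1 was lowest for 20 of 25 and replicate 3 highest for 18. Their summed signal ran from 22902 to 27540 in the reference, from 20606 to 21803 on *let-418(RNAi)* arrays and from 18593 to 21088 on *mep-1(RNAi)* arrays, and their median log2 fold change was -0.27 and -0.36. Of 14 epidermis markers measured (15 listed), *gfp(RNAi)* replicate 1 was highest for 9 and replicate 3 lowest for 11, as among the members, and their summed signal ran from 24913 to 43382, from 40592 to 55939 and from 39153 to 54499 in the 3 groups. Intestine markers (13 of 13 measured, none in the dimmest 25%) had medians of -0.50 and -0.36 and muscle markers (13 of 13) -0.33 and -0.34, so medians below 0 were not particular to neurons. Epidermis markers went the other way, with medians of 0.31 and 0.33 and 12 and 11 of 14 above 0. The size of these medians depended on the batch. In batches 1 to 3 the epidermis medians were -0.01, 0.24 and 0.85 for *let-418(RNAi)* and 0.16, 0.31 and 0.47 for *mep-1(RNAi)*. The neuron marker medians were -0.02, -0.17 and -0.33 for *let-418(RNAi)* and -0.14, -0.50 and -0.37 for *mep-1(RNAi)*. The summed intestine signal ran from 37437 to 39334, from 27700 to 35836 and from 30497 to 40798 in the 3 groups. The part of any of these tissues in the members' values was not tested.

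**Figure D3:**
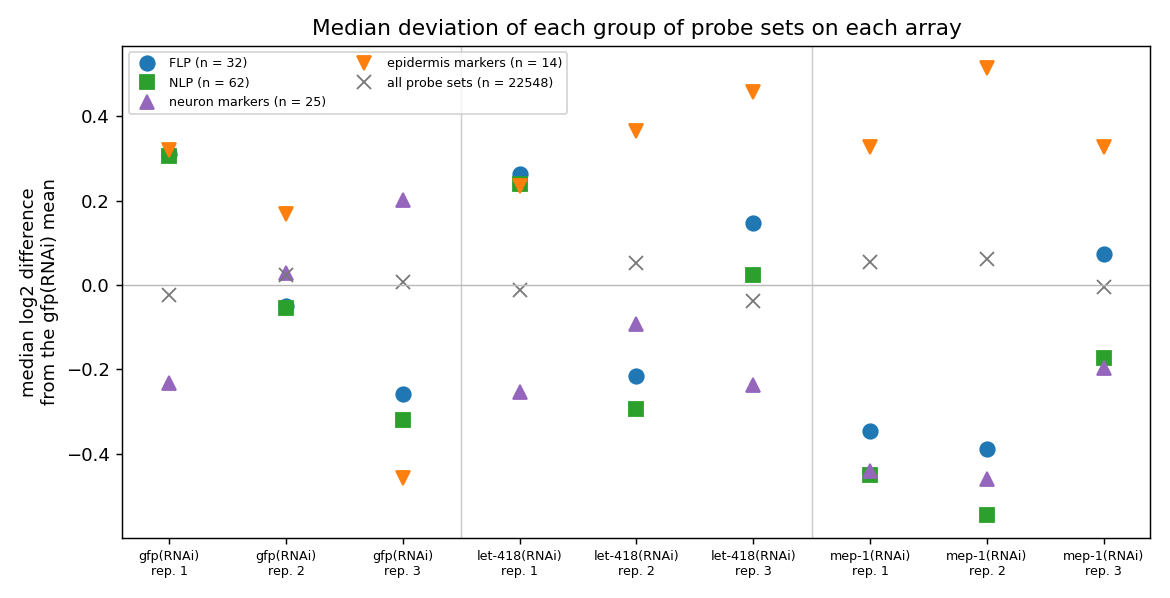
Median log2 difference from the *gfp(RNAi)* mean (vertical axis) on each of the 9 arrays, for FLP, NLP, neuron marker, epidermis marker and all probe sets (symbols; number of each in the key). FLP and NLP medians lie close together on each array and are at 0.31 on *gfp(RNAi)* replicate 1 and at -0.26 and -0.32 on replicate 3, while the neuron markers are at -0.23 and 0.20 there and all probe sets stay near 0.

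Set directly against each other, the labelled knockdown groups differed by a small amount in their medians, while single arrays of the groups overlapped. Against the reference mean, *mep-1(RNAi)* replicate 3 had median deviations of 0.07 (FLP) and -0.17 (NLP). Those of *let-418(RNAi)* replicate 2 were lower, at -0.21 and -0.29. The median log2 difference, *mep-1(RNAi)* minus *let-418(RNAi)*, was -0.27 for FLP and -0.31 for NLP (all probe sets 0.03), with 31 of 32 and 54 of 62 probe sets below 0. The medians were below 0 in each batch, at -0.58, -0.10 and -0.09 for FLP and -0.63, -0.25 and -0.09 for NLP, and with each array left out, from -0.40 to -0.18 and from -0.45 to -0.18. Without *let-418(RNAi)* replicate 1 they were -0.18 for both families, and without *mep-1(RNAi)* replicate 1 or *mep-1(RNAi)* replicate 2 the FLP median was -0.21 or -0.18. No member was called in this contrast by limma (0 of 94, against 0.00443% of all probe sets), none passed the methods' t-test at its threshold, and 5 FLP and 6 NLP probe sets had an unadjusted p under 0.05 (all probe sets 5.61%). A total of 36 members were lower in all 3 batches and 1 was higher in all 3, beside 11.7% and 16.1% of all probe sets. Only 8 members lay wholly below the *let-418(RNAi)* group and 1 wholly above (8.51% and 1.06%), beside 4.84% and 6.68% of all probe sets.

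The epidermal antimicrobial genes *nlp-24* to *nlp-34* were measured for 10 of 11 members (*nlp-34* was not). Of the 10, none was called on *let-418(RNAi)* arrays and 1, *nlp-29*, was lower on *mep-1(RNAi)* arrays. Their median log2 fold change was -0.08 and -0.42, and 9 of 10 had their highest reference signal on *gfp(RNAi)* replicate 1. With single arrays left out the medians ran from -0.31 to 0.21 and from -0.65 to -0.20, the ends being those without *gfp(RNAi)* replicate 3 and without *gfp(RNAi)* replicate 1. *nlp-27* to *nlp-31* stand side by side on chromosome V and are read by probe sets of the x_at kind, whose probes can bind near-identical copies, so their values are uncertain as those of single genes.

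Within that cluster *nlp-27* differed from its neighbours. It read 83.2, 50.5 and 64.7 in the reference, 139, 127 and 109 on *let-418(RNAi)* arrays and 120, 88.1 and 145 on *mep-1(RNAi)* arrays. Both knockdown groups lay above the reference on every array, with log2 fold changes that came to 0.94 ± 0.26 (limma adjusted p = 0.029) and 0.83 ± 0.26 (adjusted p = 0.047), under the fold limit. *nlp-28*, *nlp-30* and *nlp-31* did not pass the test, at -0.11, -0.04 and 0.18 for *let-418(RNAi)* and -0.59, -0.41 and -0.12 for *mep-1(RNAi)*.

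**Figure D4:**
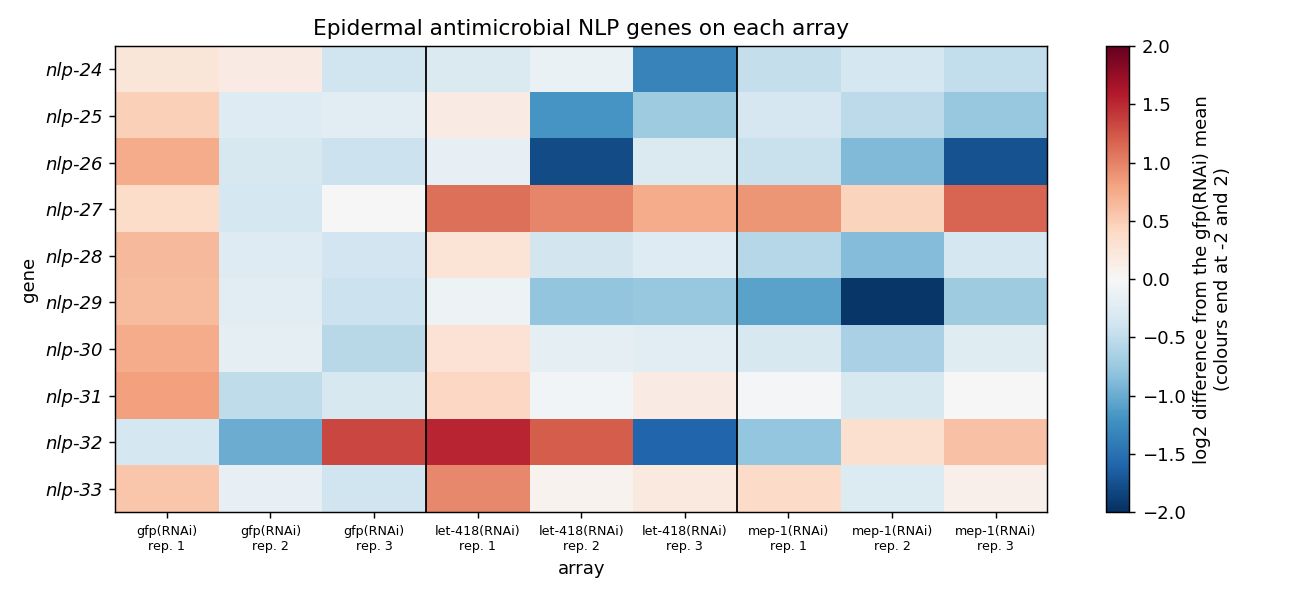
Log2 difference from the *gfp(RNAi)* mean (colour) of the 10 measured epidermal antimicrobial NLP genes (rows) on the 9 arrays (columns, black lines between groups). *nlp-27* is above the reference mean on all 6 knockdown arrays, *nlp-29* is below it on all 6, and *nlp-32*, in the dimmest 25% of probe sets, varies most between replicates.

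The list of epidermal immunity genes holds regulators, such as those of the receptor DCAR-1 and the factor STA-2, and caenacin effectors. Of 19 measured genes, 0 were called on *let-418(RNAi)* arrays and 1 on *mep-1(RNAi)* arrays (5.26%), beside 9.3% and 10.1% of all probe sets. The called gene is an effector and not a regulator. *cnc-6* encodes a caenacin antimicrobial peptide. It read 114.5, 103.96 and 68.3 in the reference, 91.9, 39.5 and 67.3 on *let-418(RNAi)* arrays and 12.2, 5.6 and 46.0 on *mep-1(RNAi)* arrays, all 3 of the last being below the reference. Its log2 fold change was -2.68 ± 0.64 (limma adjusted p = 0.013) for *mep-1(RNAi)* and -0.58 ± 0.64 (adjusted p = 0.62) for *let-418(RNAi)*.

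None of the 11 processing and amidation genes, which include the convertase gene *egl-3* and the carboxypeptidase gene *egl-21*, was called in either comparison, where 9.3% and 10.1% of all probe sets were called. In a list this short that count says little. Their median log2 fold change was 0.00 and -0.06. The 16 measured genes for dense core vesicle formation and release (18 listed) had median log2 fold changes of -0.14 and -0.30, with 12 and 13 below 0. Of them, 0 were called on *let-418(RNAi)* arrays and 1 on *mep-1(RNAi)* arrays (6.25%), beside the same 9.3% and 10.1%. This was *rab-3*, the vesicle GTPase also counted among the neuron markers, with 1505, 1619 and 2003 in the reference, 1110, 1025 and 690 on *let-418(RNAi)* arrays and 922, 593 and 868 on *mep-1(RNAi)* arrays. All knockdown values of *rab-3* were below the reference, at log2 fold changes that came to -0.88 ± 0.22 (adjusted p = 0.018) and -1.12 ± 0.22 (limma adjusted p = 0.0042).

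Of 74 measured neuropeptide receptor genes (84 listed), 1 was called on *let-418(RNAi)* arrays (1.35%) and 3 on *mep-1(RNAi)* arrays (4.05%). Both shares were under the 9.3% and 10.1% of all probe sets. The gene lower in both was *trhr-1*, a relative of the thyrotropin-releasing hormone receptor, with 571, 741 and 562 in the reference, 270, 304 and 285 on *let-418(RNAi)* arrays and 307, 322 and 214 on *mep-1(RNAi)* arrays. No knockdown value of *trhr-1* reached the reference, and the log2 fold changes were -1.11 ± 0.18 (limma adjusted p = 0.0015) and -1.16 ± 0.18 (adjusted p = 0.0010). On *mep-1(RNAi)* arrays *nmur-2*, a neuromedin U receptor gene, was also lower (-1.03 ± 0.31, adjusted p = 0.040) and *npr-8* higher (1.04 ± 0.18, adjusted p = 0.0024). The receptor median was -0.24 and -0.35, and *gfp(RNAi)* replicate 1 was lowest in the reference for 54 of 74, as for the neuron markers and unlike the peptide genes.

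Of 25 measured neprilysin genes, whose products include enzymes that degrade peptides outside cells, 3 were called on *let-418(RNAi)* arrays (12%) and 2 on *mep-1(RNAi)* arrays (8%), near the 9.3% and 10.1% of all probe sets. Of the 25, 11 were in the dimmest 25% of probe sets. *nep-17* read 3172, 3366 and 3904 in the reference, 1291, 1271 and 1427 on *let-418(RNAi)* arrays and 1556, 1399 and 1177 on *mep-1(RNAi)* arrays, and *nep-22* fell in a like way. The log2 fold changes of *nep-17* were -1.38 ± 0.15 (limma adjusted p = 5.7e-05) and -1.34 ± 0.15 (adjusted p = 6.5e-05), and those of *nep-22* -1.32 ± 0.13 (adjusted p = 4.2e-05) and -1.29 ± 0.13 (adjusted p = 4.3e-05). *nep-1* was higher on *let-418(RNAi)* arrays, at 1.29 ± 0.34 (adjusted p = 0.025). Of the 25 neuron markers, 1 was called on *let-418(RNAi)* arrays (4%) and 2 on *mep-1(RNAi)* arrays (8%), under the 9.3% and 10.1% of all probe sets. Besides *rab-3*, this was the glutamate transporter gene *eat-4*. It was lower in both comparisons, at -1.12 ± 0.21 (adjusted p = 0.0034) and -1.37 ± 0.21 (adjusted p = 0.00081).

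In 9 genes read by several probe sets (20 in all), the sign of the log2 fold change was the same across a gene's probe sets in 8 genes for *let-418(RNAi)* and in all 9 for *mep-1(RNAi)*. The widest range within a gene was 0.24 for *let-418(RNAi)* and 0.43 for *mep-1(RNAi)*. Genes of the 2 families were on chromosome X in 10 of 25 FLP cases and 18 of 58 NLP cases, against 13.8% of all genes named alone on the array.

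The probe set shared by *nlp-4* and F59C6.18, outside the rule, was lower on *mep-1(RNAi)* arrays. It read 83.3, 54.3 and 106 in the reference, 57.3, 56.8 and 43.5 on *let-418(RNAi)* arrays and 30.6, 34.7 and 30.8 on *mep-1(RNAi)* arrays, the last wholly below both others, at -1.29 ± 0.30 (limma adjusted p = 0.011). Which of the 2 genes gave this signal cannot be told from the probe set.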

How the data were processed

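The deposited values are MAS5 signal intensities per probe set, made by the authors with Affymetrix software (version not given in the sources used here). The global scaling that the methods describe was not found in them, since trimmed means (2% off each end) ran from 209 to 436, so each array was scaled to their geometric mean, 324. Log2 signals of all 22548 probe sets and 9 arrays were fitted with limma 3.58.1 in R 4.3.3 (group means, eBayes with an intensity trend, two-sided), tested first on simulated data. The 3 arrays per group limit the precision. Gene names came from the platform annotation and the RefSeq table (WBcel235, names and neighbours only). Members and gene lists were chosen with earlier results of these data known. Genes given in full were the called members, the 3 brightest of each family and *nlp-5*, with up to 3 called genes of each other list. For a gene of several probe sets the brightest stood for it. Batch numbers equal replicate numbers, and same-numbered arrays were treated as pairs. Their deviations from group means correlated at 0.04 on average (-0.03 to 0.10) over 9 same-batch pairs and at -0.02 over 18 others. Alternatives covered scaling, offset, dim probe sets, variance trend, arrays fitted, batch as a block, single arrays left out, the methods' t-test and the fold limit.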

Additional observations from a re-analysis of the deposited data

How the results depend on the processing

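The called FLP probe set on *let-418(RNAi)* arrays (1) became 0 after quantile normalization, on unscaled signals, with the offset (21.1 added to every signal before log2) and under the methods' t-test after Benjamini-Hochberg; for *mep-1(RNAi)* the 0 became 1 after quantile normalization and 3 without the fold limit. The 2 called NLP probe sets for *let-418(RNAi)* became 1 on unscaled signals, with the offset or without the dimmest 25% of probe sets, 0 under the methods' t-test with or without adjustment, and 5 without the fold limit. The 3 for *mep-1(RNAi)* became 1 with the offset or without the intensity trend, 0 under the methods' t-test with or without adjustment, and 5 without the fold limit. The causes were not tested. With the batch as a block the called members stayed at 3 in both comparisons, and on the adjusted p alone 5 and 12 members passed in place of 6 and 8. The block changed no other call of a member. With single arrays left out, called FLP probe sets ran from 0 to 1 in both comparisons, called NLP probe sets from 2 to 3 (*let-418(RNAi)*) and 1 to 4 (*mep-1(RNAi)*), and called members between the knockdowns stayed at 0. The medians then ran from -0.16 to 0.18 and from -0.39 to -0.08 (FLP), and from -0.21 to 0.14 and from -0.54 to -0.27 (NLP). Signs turned on unscaled signals for *flp-9* (-0.22) and *nlp-40* (-0.011) on *mep-1(RNAi)* arrays. With single arrays left out, ranges that crossed 0 were -0.53 to 0.16 for *nlp-89*, -0.10 to 0.034 for *flp-18*, -0.18 to 0.33 for *nlp-18* and -0.17 to 0.15 for *nlp-5* on *let-418(RNAi)* arrays and -0.13 to 0.26 for *flp-9* on *mep-1(RNAi)* arrays, none of which had passed the test in that comparison. Precision is limited by 3 arrays a group and, for 7 of 94 members, by signals in the dimmest 25%.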
